A study of Mus musculus with 7 samples.

Results

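The mitosis and G2/M genes described here are 41 mouse genes that encode the machinery of cell division: the mitotic cyclins and their kinase, the Aurora, Polo and Nek kinases, the spindle checkpoint and the ubiquitin enzymes it restrains, kinesins and other spindle proteins, centromere proteins, cytokinesis factors and the proteins that condense and untangle chromosomes. They were chosen by name, with earlier results of these data known. Of the 41, 40 had at least 1 probe set annotated to that gene alone on either array type, out of 18336 such genes in all, and Ccnb1 is not analysed here. The array type used for testis held 35 of them on 46 probe sets, without Bub1b, Cenpf, Tpx2, Ncapd2 and Ncapg, and the array type used for Sertoli and TM4 cells held 40 of them on 95 probe sets.

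The study concerned how germ stem cells are lost when mice lack ERM, the ETS family transcription factor encoded by Etv5. RNA from 7 sources was hybridised to 1 single-colour Affymetrix array each: whole testis of an ERM knockout mouse and of a wild-type mouse at 4 weeks of age, primary Sertoli cells of ERM knockout mice at 10 weeks and at 4 weeks and of wild-type mice at 4 weeks, and the TM4 cell line with and without transfection of ERM. Sertoli cells are the somatic nurse cells of the seminiferous tubule, and TM4 is a dividing line derived from mouse Sertoli cells. The labels do not give the strain, the design of the deleted allele, the number of animals behind a preparation, the purity of the Sertoli cells or the kind of transfection. With 1 array in each group there were no replicates, no test was possible, and every ratio below compares 2 arrays and not 2 conditions.

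As background, entry into mitosis is driven by Cdk1 bound to cyclin A or cyclin B. Polo and Aurora kinases then mature the centrosomes and correct attachments, and the checkpoint proteins Mad2 and Bub1 hold back the Cdc20-activated anaphase-promoting complex until every chromosome is attached. Most of these genes are transcribed late in the cell cycle, through repression by the DREAM complex in resting cells and activation by B-Myb and FoxM1 in dividing cells. In the testis, spermatogonia divide by mitosis and spermatocytes use much of the same machinery in the meiotic divisions, while Sertoli cells cease to divide around the onset of puberty.

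Intensities are given after each array was scaled to a trimmed mean of 500. A value below a floor of 100 was treated as not measured above the floor, and a ratio with 1 array below it was computed against the floor and is a bound, named as such or written as "at least". Levels of different genes were not compared with each other, because probe sets differ in how strongly they bind. Trimmed means as deposited were 288 to 299 on the Sertoli arrays, 183 to 186 on the TM4 arrays and 468 to 477 on the testis arrays. On bright genes with more than 1 probe set, the standard deviation of a log2 ratio between probe sets of the same gene was 0.18 for the testis pair, 0.16 for the 4-week Sertoli pair, 0.13 for the TM4 pair and 0.18 for the pair of knockout ages, a spread within array pairs that says nothing of the spread between animals. The 18S ribosomal RNA 5′ control probe read 4551 on the array labelled Sertoli knockout at 4 weeks and 352 on that at 10 weeks, against 349 for wild type.

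Etv5, the targeted gene, was not lower on the Sertoli arrays labelled knockout: the brightest of its 3 probe sets read 995 at 10 weeks and 910 at 4 weeks, against 710 on the wild-type Sertoli array. The sources used here do not say whether its probes lie in the deleted part, so the Sertoli labels are neither borne out nor contradicted by it. No Etv5 probe set was analysed on the array type used for testis, so the testis labels were not checked against it. On the TM4 arrays the same probe set read 473 with ERM against 405 without (1.17-fold), and the others read 475 against 314 (1.51-fold) and 211 against 187 (1.13-fold). The 11 Sertoli cell markers with a probe set summed to 42148, 46086 and 38706 on the arrays of knockout Sertoli cells at 10 weeks, at 4 weeks and wild type, against 3089 and 3169 in TM4 with and without ERM. Sox9, Wt1, Clu, Inha and Cldn11 made up most of the sum on the Sertoli arrays (Sox9 read 6380, 6439 and 5220 on the arrays of knockout at 10 weeks, knockout at 4 weeks and wild type). Sox9 read 150 and Wt1 92.1 on the TM4 array with ERM, against 95.1 and 97.4 without it, at or near the floor, while Clu read 378 and 410 in TM4 with and without ERM. Against wild-type Sertoli cells, 7 of the 11 were at least 2-fold lower in untransfected TM4 and 3, Amh, Espn and Gdnf, at least 2-fold higher. Fshr, the FSH receptor, was dim throughout at 190, 170 and 139 on the arrays of knockout at 10 weeks, knockout at 4 weeks and wild type.

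Many of the promoters of these genes carry a pair of short sequences, and promoters are shown here because both were found in 24 of the 34 examined. The CHR element (cell cycle genes homology region, TTTGAA) is a known binding site of the DREAM and B-Myb complexes, and CCAAT is the known binding site of the factor NF-Y. Both were searched on both strands from 250 bases before to 50 bases after the annotated start in RefSeq promoters of the GRCm38.p6 mouse assembly, which held 34 of the 40 analysed members. TTTGAA was present in 26 of the 34 (76.5%), against 18.1% of 27025 promoters of all genes, and within 50 bases of the start it was present in 67.6%, against 4.92%. CCAAT was present in 79.4% of members, against 37.9% of all promoters, and at least 2 copies in 52.9%, against 12.2%. Both were found in 70.6% of members, against 7.12% of all promoters. Of the 14531 genes with a promoter and, like these members, an analysed probe set, 13.4% held TTTGAA, 38.3% CCAAT and 5.41% both. TTTGAA lay within 50 bases of the start in 3.36% of them, and 13.5% held at least 2 copies of CCAAT. In no member did a CCAAT match overlap a TTTGAA match. The S phase genes, a list of 38 replication genes of which 32 had a promoter, held TTTGAA in 15.6% and both motifs in 6.25%. A list of other G2/M genes, 44 of them with a promoter, held TTTGAA in 56.8% and both in 38.6%. A match describes the letters only and is not evidence of binding.

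Below are 6 of these promoters, those of Cdc20, Ccnb2, Top2a, Prc1 and Nek2, which include the members with the largest differences between the knockout Sertoli arrays, and of Plk4, among the largest differences in testis. The choice was not by size alone. Bub1, with a bound of -1.71 between the knockout ages against -1.46 for Prc1, is not printed and held 2 CCAAT matches and no TTTGAA. Mad2l1, with the largest difference in testis, is not printed either and held neither motif. Each is printed 5′ to 3′ on the strand of its gene, 300 bases, with TTTGAA and CCAAT, or their reverse complements TTCAAA and ATTGG, in capitals. The windows are chr4:118437294-118437593 (minus strand) for Cdc20, chr9:70421505-70421804 (minus strand) for Ccnb2, chr11:99024140-99024439 (minus strand) for Top2a, chr7:80294201-80294500 (plus strand) for Prc1, chr1:191821223-191821522 (plus strand) for Nek2 and chr3:40799701-40800000 (plus strand) for Plk4.
Cdc20: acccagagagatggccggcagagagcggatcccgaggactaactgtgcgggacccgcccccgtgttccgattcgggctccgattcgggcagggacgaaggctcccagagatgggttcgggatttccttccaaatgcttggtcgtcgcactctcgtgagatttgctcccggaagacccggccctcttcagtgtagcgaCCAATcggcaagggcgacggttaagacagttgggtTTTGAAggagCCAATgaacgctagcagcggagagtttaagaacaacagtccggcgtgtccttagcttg
Ccnb2: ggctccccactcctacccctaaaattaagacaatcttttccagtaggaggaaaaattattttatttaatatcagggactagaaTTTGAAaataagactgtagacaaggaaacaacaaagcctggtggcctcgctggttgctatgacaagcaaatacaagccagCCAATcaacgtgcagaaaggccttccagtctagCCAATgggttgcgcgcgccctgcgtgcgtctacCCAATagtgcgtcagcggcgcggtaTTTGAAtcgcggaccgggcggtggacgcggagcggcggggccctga
Top2a: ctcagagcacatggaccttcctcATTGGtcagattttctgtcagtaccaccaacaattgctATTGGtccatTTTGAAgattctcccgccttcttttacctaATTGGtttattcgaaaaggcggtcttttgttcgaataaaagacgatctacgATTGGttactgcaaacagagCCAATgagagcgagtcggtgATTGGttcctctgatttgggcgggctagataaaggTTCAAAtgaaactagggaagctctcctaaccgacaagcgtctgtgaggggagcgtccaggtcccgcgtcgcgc
Prc1: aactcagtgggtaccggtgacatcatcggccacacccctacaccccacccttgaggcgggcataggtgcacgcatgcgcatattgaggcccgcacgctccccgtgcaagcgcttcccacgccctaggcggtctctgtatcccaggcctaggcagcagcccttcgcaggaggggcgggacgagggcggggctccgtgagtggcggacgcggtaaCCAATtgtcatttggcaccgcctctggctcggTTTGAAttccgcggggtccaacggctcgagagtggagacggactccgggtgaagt
Nek2: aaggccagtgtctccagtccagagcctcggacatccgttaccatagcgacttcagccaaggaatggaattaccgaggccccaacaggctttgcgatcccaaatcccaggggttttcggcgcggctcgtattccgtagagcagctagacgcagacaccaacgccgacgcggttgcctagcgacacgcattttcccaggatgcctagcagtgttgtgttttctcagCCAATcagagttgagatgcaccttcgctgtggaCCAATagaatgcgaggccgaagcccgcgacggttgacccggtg
Plk4: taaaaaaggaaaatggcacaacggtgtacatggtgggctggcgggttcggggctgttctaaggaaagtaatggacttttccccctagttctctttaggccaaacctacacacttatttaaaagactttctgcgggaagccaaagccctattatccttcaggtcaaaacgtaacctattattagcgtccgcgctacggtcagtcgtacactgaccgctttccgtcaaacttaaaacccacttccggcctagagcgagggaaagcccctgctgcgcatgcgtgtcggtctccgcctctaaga

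Cdc20 and Prc1 had a TTTGAA match shortly before the start with CCAAT upstream of it. Ccnb2 had 2 TTTGAA matches, with 3 CCAAT matches between a far one and one just after the start. Top2a held 6 CCAAT matches and 2 TTTGAA matches. Nek2 held 2 CCAAT matches and no TTTGAA, and Plk4 held neither, as did Mad2l1, Pttg1, Birc5 and Nusap1. Set against the differences described below, in testis the median log2 ratio was -0.44 for the 22 measured members with TTTGAA and -0.49 for the 7 without it, and in Sertoli cells at 4 weeks -0.46 for 26 and -0.70 for 8.

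**Figure D1:**
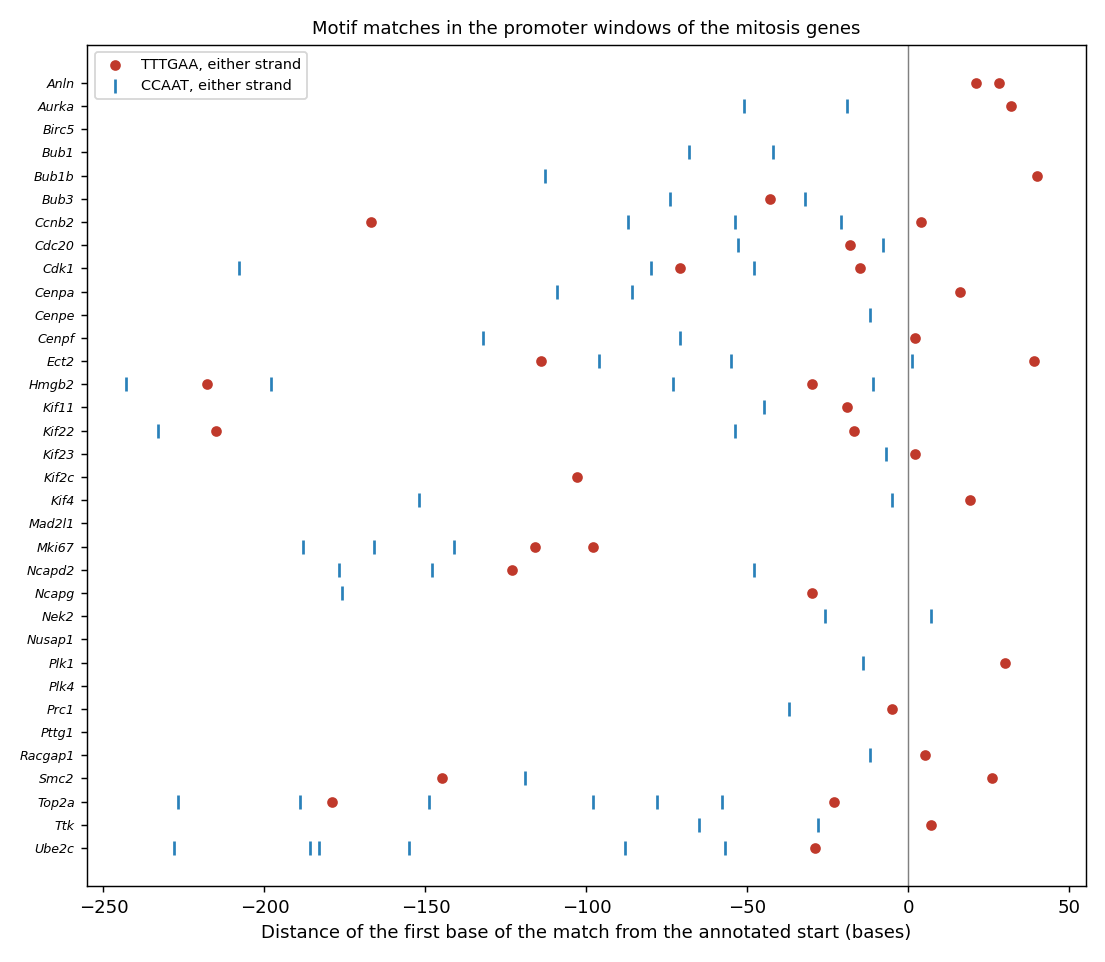
Positions of TTTGAA (dots) and CCAAT (bars) matches, on either strand, in the promoter windows of the 34 analysed members held in the RefSeq table; the horizontal axis is the distance in bases of the first base of a match from the annotated start (vertical line), and each row is a gene. TTTGAA matches lie near the start in 23 of the 34 genes, most often with CCAAT upstream, and 5 rows are empty.

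In whole testis at 4 weeks, most mitosis genes read lower on the array labelled ERM knockout, by amounts that were mostly under 2-fold. Of the 35 members on this array type, 34 were at or above the floor on at least 1 array and 32 on both. The log2 ratio of knockout to wild type was below 0 in 30 of the 34, where 52.1% of all genes measured were below 0. Its median was -0.46 over the members and -0.01 over all genes. Mad2l1, Plk4, Hmgb2 and Top2a were at least 2-fold lower, as were 0.852% of all genes, and no member was at least 2-fold higher, as were 0.532% of all genes. Each of the members at least 2-fold lower had only 1 probe set on this array type. In bulk RNA, fewer dividing cells and less of each RNA per cell cannot be told apart.

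Among the cyclins, Cdk1 and Cdc25c, the differences in testis were small, and only Cdc25c was above 0. Ccnb2, cyclin B2, read 3068 on the knockout testis array against 3570 on the wild-type array (log2 ratio -0.22). Cdk1, the mitotic kinase, read 985 against 1250 (-0.34), and Ccna2, cyclin A2, read 462 against 530 (-0.20). Cdc25c, a phosphatase that activates Cdk1, read higher on the knockout array, 350 against 240 (0.54), and its other probe set gave 0.39. Both Cdc25c probe sets therefore lay opposite to the cyclins.

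The mitotic kinases, grouped here with survivin (Birc5), were lower in 6 of 7 genes, with a median of -0.31. Plk4, the kinase that starts centriole duplication, read 153 in knockout testis against 381 in wild type, 2.49-fold lower. Aurkb, the kinase of the chromosomal passenger complex, read 527 against 843 (-0.68), and its partner Birc5, survivin, read 798 against 990 (-0.31). Plk1, which acts from mitotic entry to cytokinesis, read 1578 against 1574 (0.00), while its 2 other probe sets gave -0.23 and -0.34. Plk4 thus stood apart from Plk1, Aurka (-0.27) and Ttk (-0.19), the last being the checkpoint kinase Mps1.

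All 6 measured checkpoint and anaphase-promoting complex genes were lower, with a median of -0.62. Mad2l1, the checkpoint protein that binds Cdc20, read 181 in knockout testis against 457 in wild type, 2.52-fold lower, the largest difference of any member in this comparison. Cdc20 itself read 1746 against 2825 (-0.69), and Bub1, the kinetochore checkpoint kinase, read 1013 against 1618 (-0.68), with a bound of -0.76 on another probe set that was below the floor in knockout. Bub3, which recruits Bub1 (-0.46), and Pttg1, securin (-0.46), were lower by less. Ube2c, the ubiquitin-conjugating enzyme of the complex, was near the floor at 103 against 152.

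Of the kinesins and spindle proteins, 7 of 8 read lower, with a median of -0.46 that includes bounds for Kif4 and Kif11, which were below the floor on the knockout array. Prc1, which bundles midzone microtubules, read 577 in knockout testis against 949 in wild type (-0.72). Kif20a and Kif23, kinesins of the midzone and cytokinesis, had ratios of -0.52 and -0.50. Kif2c, a microtubule depolymerase at centromeres, was the member furthest above 0, at 1928 against 1168 (0.72), on its only probe set. Of the centromere genes, Cenpa, the centromeric histone H3 variant, read 390 against 388, and Cenpe, a kinetochore kinesin, was below the floor on both arrays at 61.5 and 77.4.

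The cytokinesis genes split, with Anln, the actin-binding scaffold anillin, at 243 in knockout testis against 474 in wild type (-0.96), Ect2, the activator of RhoA at the cleavage furrow, at 232 against 360 (-0.64), and Racgap1, its partner, at 809 against 810. The chromosome structure genes had the lowest median of the role groups, -0.91 over 5 genes. Hmgb2, a chromatin protein that is also abundant in germ cells, read 818 against 1836, 2.25-fold lower, on a single probe set, whose name marks a reduced probe design. Top2a, the topoisomerase that untangles sister chromatids, read 344 against 732, 2.13-fold lower. Mki67, the proliferation antigen Ki-67, read 144 against 272 (-0.91, and -0.66 on its other probe set). Smc4 and Smc2, the condensin core, had smaller ratios of -0.39 and -0.30.

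**Figure D2:**
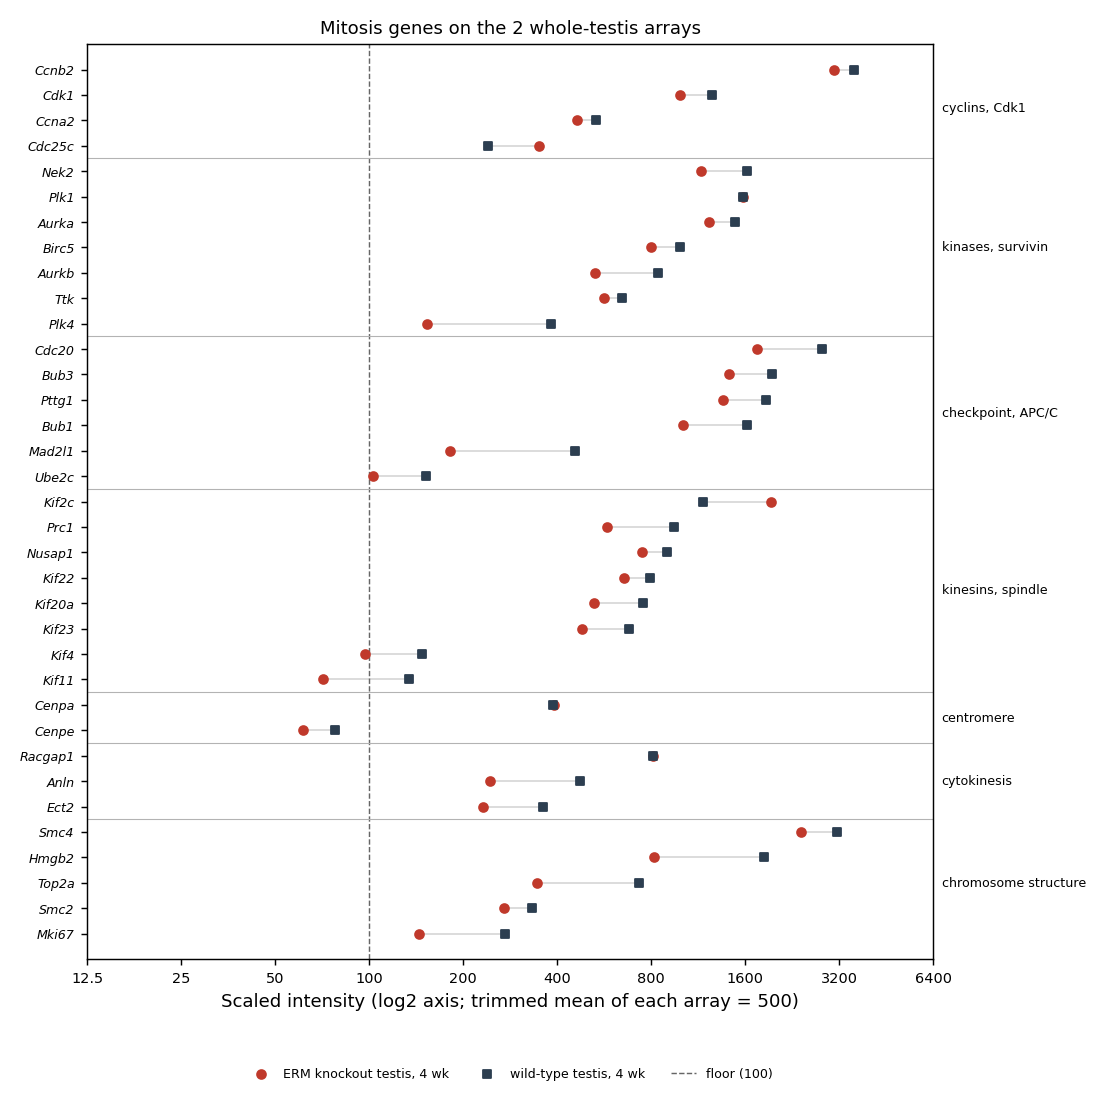
Scaled intensity (log2 axis) of the 35 mitosis genes on the array of ERM knockout testis (red circles) and wild-type testis (dark squares) at 4 weeks, 1 array each, grouped by role; the dashed line is the floor of 100. Circles lie left of squares for most genes, by most for Mad2l1 and Plk4, and right of them for Kif2c and Cdc25c.

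Other lists put the testis values in context. The other G2/M genes had a median of -0.20 over 25 measured, with 21 below 0 and 1 at least 2-fold lower, Gtse1 (-1.10), a microtubule-binding protein of G2. Cks2, a Cdk1 subunit, had -0.95, Cdca8, borealin, -0.78, and Ckap2, a spindle protein, -0.72. The S phase genes had -0.23 over 33, with bounds past 2-fold for Rpa2 and Mcm2, and the G1 cyclins and kinases 0.24 over 7. The regulators of G2/M transcription had a median of -0.09 over 12, with 10 below 0, led by Nfyb (-0.95), Mybl1 (-0.56) and Lin9 (-0.49). Foxm1, 1 of the 2 above 0, read 821 in knockout testis against 674 in wild type. Of the Cdk inhibitors, Cdkn1b, p27, was at 376 against 804 (-1.10) and Cdkn1c, p57, at 1107 against 589 (0.91). Markers of spermatogonia were also lower, 7 of 8 measured, with a median of -0.51 and a summed intensity over 10 markers of 4679 in knockout against 7269 in wild type. Stra8 and Crabp1 were below the floor on the knockout array, and Gfra1 and Sall4 were below it on both. Spermatocyte markers had a median of -0.31 over 5 measured of 6 and summed to 14861 in knockout testis against 14728 in wild type, while Sertoli markers had 0.30 over 9 and summed to 13258 in knockout against 10749 in wild type. Spermatid markers were above 0 in 9 of 9, with a median of 0.23 and a sum of 67153 in knockout against 58926 in wild type. Fibroblast markers had 0.35 over 7 measured of 8, with Dcn and Pdgfra at least 2-fold higher, and summed to 6341 in knockout testis against 4133 in wild type. The part of these cell types in the mitosis gene values was not tested.

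In primary Sertoli cells at 4 weeks, most mitosis genes also read lower on the knockout array. Of 40 members, 39 were at or above the floor on at least 1 array and 36 on both. The log2 ratio was below 0 in 35 of the 39, where 51.8% of all genes were below 0, with a median of -0.52 against -0.02 over all genes. Anln, Ttk, Ncapg, Cenpa and Birc5 were at least 2-fold lower, as were 3.18% of all genes, and no member was at least 2-fold higher, as were 0.681%. The count of 5 became 2 with the mean over probe sets or a floor at 0.4 of the trimmed mean, and 3 without letter-suffixed probe sets, which are those whose name marks a match to several transcripts or genes or a reduced probe design.

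Anln read 567 on the knockout array against 1394 on the wild-type array, 2.46-fold lower, while its other probe set, below the floor on the wild-type array, gave a bound of 0.02. Ttk read 120 against 280, 2.34-fold lower, on its only measured probe set. Birc5 read 178 against 390, 2.19-fold lower, also on a single probe set. Ncapg, a condensin subunit, read 174 against 406, 2.33-fold lower, with 0.12 on its other probe set. Cenpa read 107 against 238, 2.22-fold lower, with bounds of -0.26 and -0.46 on the others, which were below the floor on the knockout array. Of these 5 genes, then, none had a second probe set at or above the floor on both arrays that was also lower.

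By role, the kinases, grouped with Birc5, had a median of -0.79 over 7 genes. Plk1 read 185 on the knockout array against 339 on the wild-type array (-0.88). Plk4 read 246 against 426 (-0.79, all 3 probe sets lower), and Aurkb 118 against 116 (0.03). The cytokinesis genes had -0.95 over 3, with Ect2 at 317 against 613 (-0.95). The checkpoint genes were lower in 7 of 7 but by less, with a median of -0.24: Cdc20 read 1099 against 1847 (-0.75) and was lower on all 3 probe sets, and Mad2l1 read 817 against 956 (-0.23). Ccna2 read 802 against 1515 (-0.92, and -0.85 on its other probe set), whereas Cdk1 read 1257 against 1083 (0.22). Tpx2, the activator of Aurora A on the spindle, read 727 against 529 (0.46), but 2 of its 4 probe sets were lower. Ncapd2, a condensin subunit, was higher on both probe sets, by 0.21 and 0.18. Cdc25c was below the floor on all 3 Sertoli arrays.

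Of the 22 members with at least 2 measured probe sets in this comparison, 14 were lower on each of them, 1 higher on each and 7 mixed. The other G2/M genes had a median of -0.33 over 45, with Cdca8 (-1.29) and Incenp (-1.19), both of the passenger complex with Aurkb and Birc5, at least 2-fold lower. The S phase genes had -0.31 over 36, with Mcm2, Mcm5, Cdt1 and Mcm6 at least 2-fold lower, and the G1 cyclins and kinases had -0.43 over 9, with Ccnd3, Ccne2 and Ccne1 at least 2-fold lower. Markers of other cell types also differed between the same arrays. Macrophage markers had a median of -0.87 over 10 measured of 12, and their summed intensity was 5494 on the knockout array against 12560 on the wild-type array, with Ptprc and Itgam below the floor on both. Spermatocyte markers had -0.57 over 16, with a sum of 16840 on the knockout array against 25010 on the wild-type array. Spermatogonia markers had -0.35 over 11 measured of 12 and summed to 8501 on the knockout array against 11336 on the wild-type array. Spermatid markers went the other way, above 0 in 8 of 10, with a median of 0.42 and a sum of 17542 on the knockout array against 13261 on the wild-type array. Fibroblast markers had -0.81 over 5 measured of 8, and summed to 6304 on the knockout array against 11344 on the wild-type array. Sertoli markers had 0.30 over 11, with 46086 on the knockout array against 38706 on the wild-type array. Their part in the mitosis gene values, and that of the high 18S signal on this knockout array, was not tested.

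Testis and Sertoli cells share no array, so their ratios can be set side by side. Of 33 members measured in both, 28 (84.8%) were lower on the knockout array in both tissues, against 28.0% of 6907 genes measured in both. No member was at least 2-fold lower in both, and only 5 of the 6907 genes were. Across the 33 genes the ratios themselves showed little relation, with Pearson's r of 0.08 and Spearman's rho of -0.01, across genes that are not independent and that share the arrays. Mad2l1 shows the contrast, at -1.34 in testis and -0.23 in Sertoli cells, and Cenpa the opposite one, at 0.01 and -1.15. Anln was near or past 2-fold lower in both, at -0.96 and -1.30.

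**Figure D3:**
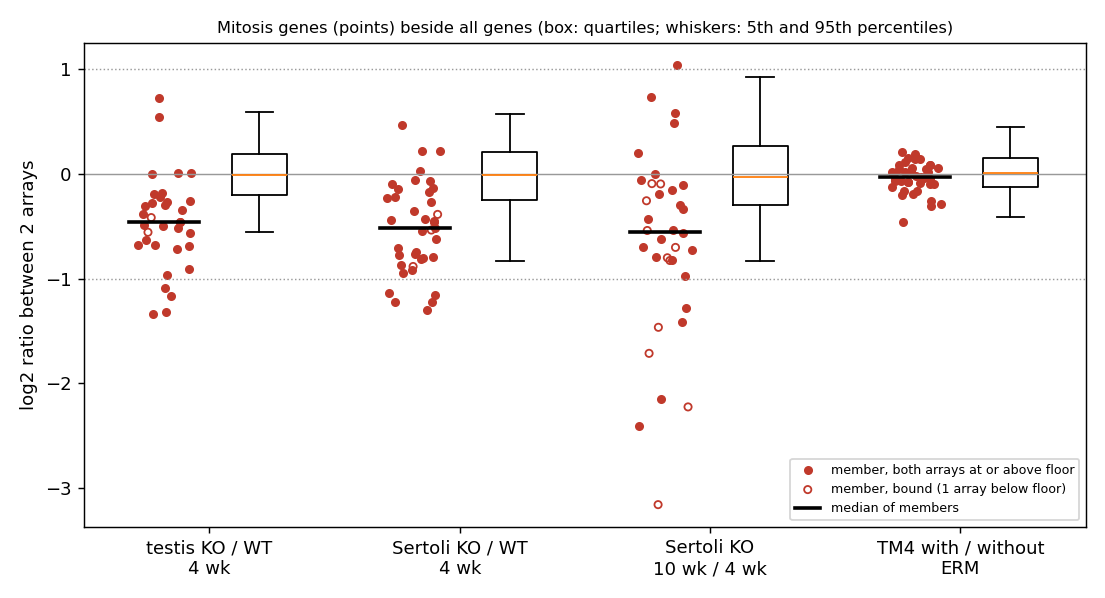
Log2 ratios of the mitosis genes (red points; open points are bounds) in 4 comparisons, each between 2 arrays, with the median of the members as a black bar, beside all genes (box, quartiles; whiskers, 5th and 95th percentiles). The member medians are -0.46, -0.52 and -0.56 in testis, in Sertoli cells at 4 weeks and between the knockout ages, and -0.03 in TM4, where no point reaches 1 on either side.

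Between the knockout Sertoli preparations, the array at 10 weeks had fewer mitosis genes above the floor, 25 of 40, against 36 at 4 weeks. Of all probe sets, 73.0% were at or above the floor at 10 weeks and 72.0% at 4 weeks. A ratio could be given for 36 members, 11 of them as bounds, and 31 were below 0, where 53.2% of all genes were. Their median was -0.56 against -0.03 over all genes, but it was -0.26 when letter-suffixed probe sets were left out. At least 2-fold lower were Nek2, Cdc20, Ccnb2, Top2a, Bub1, Prc1, Smc4 and Aurka, as were 3.51% of all genes. Anln alone was at least 2-fold higher, as were 4.19% of all genes. With a floor at 0.4 of the trimmed mean the count of lower genes was 5. Of the 21 members with at least 2 measured probe sets here, 10 were lower on each, 1 higher on each and 10 mixed.

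Nek2, a centrosome kinase that is also known from meiotic germ cells, read 97.1 at 10 weeks against 890 at 4 weeks, at least 8.90-fold lower, with 1199 in wild type. Its other probe sets gave -2.12 and -0.15. Cdc20 read 208 at 10 weeks against 1099 at 4 weeks, 5.28-fold lower, and all 3 of its probe sets were at least 2-fold lower (-2.40, -1.74 and a bound of -1.19). Ccnb2 read 92.5 against 467, at least 4.67-fold lower, and Top2a read 110 against 484, 4.42-fold lower, with a bound of 0.30 on a dim second probe set that was below the floor at 4 weeks. These 4 genes had read 1.35-fold, 1.68-fold, 1.36-fold and 1.76-fold lower in knockout than in wild type at 4 weeks.

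Bub1 read 40.9 at 10 weeks against 328 at 4 weeks, at least 3.28-fold lower, and Prc1 read 26.7 against 276, at least 2.76-fold lower, with a bound of -1.49 on its other probe set. Smc4 read 891 against 2378, 2.67-fold lower, and was lower on all 3 probe sets. Aurka, the Aurora kinase of the spindle poles, read 142 against 345, 2.43-fold lower. A few members went the other way. Anln read 1158 at 10 weeks against 567 at 4 weeks, 2.04-fold higher and near the wild-type value of 1394, and Plk1 read 306 against 185 (0.73), with 339 in wild type. Ccna2 read 1193 against 802 (0.57), but its other probe set gave -0.45. The members thus differed in size and direction between the knockout ages, and Bub3 (-0.06), Bub1b (-0.11) and Kif2c (-0.01) were near 0. For Kif2c this held on the brightest probe set, while others gave -0.14 and a bound of -0.81, below the floor at 10 weeks.

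**Figure D4:**
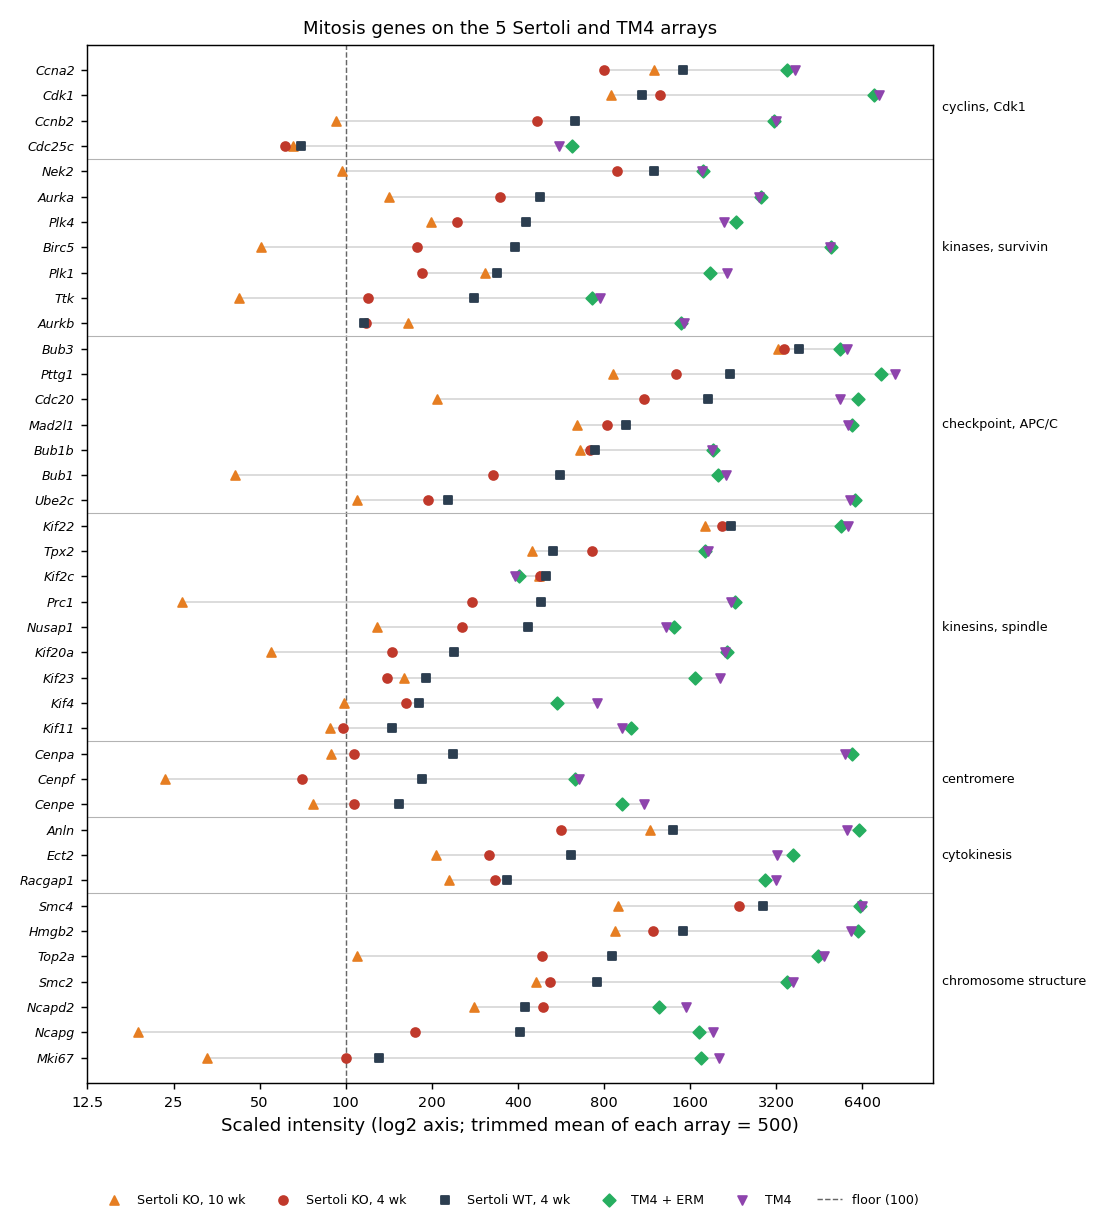
Scaled intensity (log2 axis) of the 40 mitosis genes on the arrays of knockout Sertoli cells at 10 weeks (orange triangles) and 4 weeks (red circles), wild-type Sertoli cells at 4 weeks (dark squares), TM4 with ERM (green diamonds) and TM4 without (purple triangles), 1 array each; the dashed line is the floor of 100. TM4 symbols lie together at the right for most genes, and the 10-week triangles fall furthest left for Prc1, Ncapg, Cenpf, Mki67 and Bub1.

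Markers of spermatocytes and spermatids also differed between these same arrays. Spermatocyte markers had a median of -2.44 over 15 measured of 16, with 9 at least 2-fold lower at 10 weeks. Their summed intensity was 3099 at 10 weeks, against 16840 at 4 weeks, and it was 25010 in wild-type Sertoli cells and 2145 and 2216 in TM4 with and without ERM. Ldhc, the lactate dehydrogenase of germ cells, read 1172 at 10 weeks against 6741 at 4 weeks, and Sycp3, of the synaptonemal complex, read 431 against 2708. Sycp1, Piwil1, Tex101, Tex15, Tdrd1 and Msh4 were below the floor at 10 weeks. Dazl and Ddx4, both germ cell RNA-binding proteins, read 255 and 268 at 10 weeks against 1959 and 2124 at 4 weeks. They are 2 of the spermatogonia markers, of which 10 of 12 were measured, 6 below 0 and 4 above, with a median of -0.45 and a sum of 4285 at 10 weeks against 8501 at 4 weeks. No other spermatogonia marker was at least 2-fold lower, and Sohlh1 (0.72), Kit (0.70) and Dmrt1 (0.65) were above 0. Spermatid markers had -1.31 over 10, with a sum of 6025 at 10 weeks against 17542 at 4 weeks, while Sertoli markers had -0.09 over 11, with 42148 at 10 weeks against 46086 at 4 weeks. Markers of other cell types differed as well. Of the macrophage markers, Ctss (1.97), Fcer1g (1.76) and Cd14 (1.27) were at least 2-fold higher at 10 weeks. Aif1 (-0.68) and Mrc1 (-0.51) were lower. Of the Leydig cell markers, Cyp17a1 read 1175 at 10 weeks against 364 at 4 weeks. Among fibroblast markers, Dcn (1.02) and Pdgfra (0.92) were higher, and Col3a1 (-0.53), Col1a1 (-0.32) and Col1a2 (-0.03) lower. The part of RNA from germ cells or these other cells in the mitosis gene values of the Sertoli arrays was not tested. On these arrays age and preparation cannot be told apart.

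Between the knockout ages the other cell cycle lists had medians smaller in size than that of the members, with single genes past 2-fold on either side. The S phase genes had a median of -0.14 over 35, with Uhrf1 (-1.08) as a bound past 2-fold lower and Pola1 (1.40) past 2-fold higher, and the G1 cyclins and kinases had 0.21 over 9, with Cdk6 (1.44) and Ccnd3 (1.26) at least 2-fold higher and Ccne2 (-1.51, a bound) lower. The other G2/M genes had -0.10 over 43, with 7 at least 2-fold lower, led by the kinase Pbk (-2.16), Cks2 (-2.05), the histone kinase Haspin (-1.85, a bound) and the kinetochore protein Nuf2 (-1.67, a bound). Of that list Trip13, an ATPase that acts on Mad2 and on the meiotic protein Hormad1, was higher, at 1721 against 635 (1.44).

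**Figure D5:**
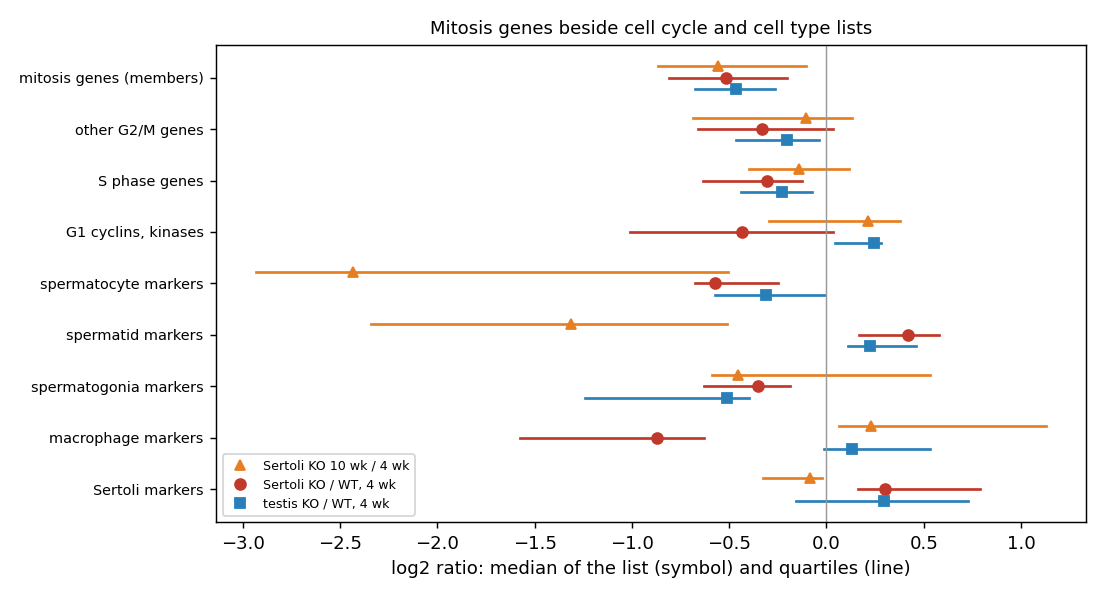
Median log2 ratio (symbol) and quartiles (line) of the mitosis genes and 8 other gene lists in 3 comparisons, each between 2 arrays: knockout Sertoli cells at 10 against 4 weeks (orange triangles), Sertoli knockout against wild type (red circles) and testis knockout against wild type (blue squares). Spermatocyte markers reach a median of -2.44 between the knockout ages, where the mitosis genes are at -0.56 and the Sertoli markers at -0.09.

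The array at 10 weeks was also set against the wild-type array at 4 weeks, a pair that differs in genotype and in age, which cannot be told apart. Of 39 members measured, 14 as bounds, 18 were at least 2-fold lower, as were 4.22% of all genes, and none was at least 2-fold higher, as were 1.62%. The median was -0.85, and 38 were below 0, where 53.4% of all genes were. Without letter-suffixed probe sets 10 were lower and 1, Cenpa, was higher. Of the 23 members with at least 2 measured probe sets in this pair, 14 were lower on each and 9 mixed. Cenpa showed how much could rest on a probe set: the one that is bright in TM4 read 88.9 at 10 weeks against 238 in wild type, while another read 909 against 119. The widest ratios were those of Nek2, at least 12.0-fold lower, and Cdc20, 208 against 1847 and 8.88-fold lower on the brightest probe set. Intensities in the order wild type, knockout at 4 weeks, knockout at 10 weeks, from high to low, were found in 28 of 39 members (71.8%), against 17.5% of 16106 genes. The same order was found in 18 of 36 S phase genes (50%) and 12 of 16 spermatocyte markers (75%).

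In TM4 cells, the mitosis genes read alike with and without transfected ERM. All 40 were above the floor on both arrays, the median log2 ratio was -0.03 against 0.00 over all genes, and 22 were below 0, where 49.2% of all genes were. No member was at least 2-fold lower or higher, as were 0.421% and 0.303% of all genes. The members ranged between Kif4, a chromosome-bound kinesin at 547 with ERM against 755 without (-0.46), and Cdc20, at 6153 against 5333 (0.21). Ccnb2 read 3137 against 3198, Cdk1 7045 against 7311, Plk1 1875 against 2149 and Mki67 1747 against 2019. With 1 culture each, these values bound no effect of ERM.

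The mitosis genes stood highest in the cell line. Their median scaled intensity was 2301 in TM4 with ERM and 2187 without, and it was 331 and 479 on the Sertoli arrays of knockout and wild type at 4 weeks. Against wild-type Sertoli cells, 37 of 40 were at least 2-fold higher in untransfected TM4, as were 16.1% of all genes, and none was at least 2-fold lower, as were 17.8%. The median log2 ratio was 2.27 against 0.08 over all genes, and 1.56 on the deposited scale, where the median of all genes was -0.60. Ube2c read 5810 in TM4 against 228 in Sertoli cells, 25.5-fold higher, and Cenpa read 5560 against 238, 23.4-fold higher. Mki67 read 2019 against 131 (3.95), Aurkb 1523 against 116 (3.72) and Birc5 4921 against 390 (3.66). Kif2c was the 1 gene below 0, where 46.9% of all genes were, at 389 against 502, on a probe set that stood apart from the other 3, which gave 1.85 to 2.57. Nek2 (0.56) and Bub3 (0.56) were the other 2 under 2-fold. The S phase genes had a median of 1.43 over 36 and the other G2/M genes 1.47 over 50 in the same comparison.

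Over the 5 Sertoli and TM4 arrays, the profiles most like the mean of the 25 members above the floor throughout were those of Ppa1, a pyrophosphatase, Kpna2, an importin, Psmg2, a proteasome assembly factor, Agpat5, a lipid acyltransferase, and Ttll6, a tubulin ligase family enzyme. Their Pearson correlations were all 1.00 to 2 decimals among 13214 genes, over 5 arrays that fall into a high pair and a low trio, so they describe that split above all. Kpna2 read 3117, 3726 and 4341 on the arrays of knockout at 10 weeks, knockout at 4 weeks and wild type, and 8907 and 8999 in TM4 with and without ERM.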

How the data were processed

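The authors deposited 1 intensity per probe set and array, linear with a minimum of 1, for 12488 probe sets in testis and 45101 in Sertoli and TM4 cells; the sources used here do not name the software or its scaling. Arrays were brought to a mean of 500 over non-control probe sets from the 2nd to the 98th percentile. Values under 100, or 0.2 of that mean, were raised to 100 before log2 ratios were taken. Only probe sets annotated to 1 gene were used, and the one with the highest mean over its table stood for the gene. The 7 arrays form 7 groups by label, so no test was run, and their number limits precision. Members were given in full where past 2-fold or among the 3 highest or lowest of a table. From other lists up to 4 genes were named by size of ratio, and genes beyond that (such as Foxm1, Dazl, Ddx4 and markers below the floor) were chosen after their values were seen. The members and lists were chosen with earlier results of these data known. Alternative settings kept the deposited scale, centred ratios on 0, used quantile normalization, moved the floor to 0.1 or 0.4 of the trimmed mean, averaged probe sets, or dropped those whose name has a letter suffix (such as _a_at, _s_at or _x_at). A count of only those genes whose measured probe sets were all on one side of 0 was chosen after seeing the data. Steps were tested on simulated data. Promoters are those of RefSeq, assembly GRCm38.p6. Python 3.11.15 was used with pandas 2.3.3, numpy 2.4.6 and matplotlib 3.10.9.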

Additional observations from a re-analysis of the deposited data

Results flagged for a closer look

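Cdk1 was singled out because its 2 knockout to wild-type ratios at 4 weeks lay in opposite directions. Each was larger than only 1 standard deviation between probe sets of a gene, 0.18 for testis and 0.16 for Sertoli cells. The log2 ratio was -0.34 in testis (985 in knockout against 1250 in wild type) and 0.22 in Sertoli cells (1257 in knockout against 1083 in wild type), each on a single probe set. The difference between the tissues was not tested, since each rests on 1 pair of arrays of different types.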

How the results depend on the processing

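Of 138 alternative values for the medians and counts, 120 stayed within the limits set for them, and every alternative value for testis and for TM4 with and without ERM did so. For Sertoli knockout against wild type, the count of 5 genes lower became 2 with a floor at 0.4 and with the mean over probe sets, 3 without letter-suffixed probe sets, and 3 counting only genes whose probe sets had the same direction. For knockout at 10 against 4 weeks, the count of 8 lower became 5 with a floor at 0.4, where fewer genes are measured. The count of 1 higher became 0 with quantile normalization and with the same-direction rule, and 2 without letter-suffixed probe sets, where the median was -0.26. For knockout at 10 weeks against wild type, the median was -1.03 and -0.69 with floors at 0.1 and 0.4, -0.62 with the mean over probe sets and -0.58 without letter-suffixed probe sets, where 10 genes were lower and 1 higher. For TM4 against Sertoli cells, the median was 1.56 as deposited, with 1 gene lower, and 1.89 without letter-suffixed probe sets. Single genes reversed 3 times. Cenpa, knockout at 10 weeks against wild type, was 0.41 with the mean over probe sets and 2.93 without letter-suffixed probe sets, and Hmgb2, TM4 against Sertoli cells, was -0.20 without them. The causes were not tested beyond these settings. Signals near the floor limit the 10-week values most. No paired analysis was possible because each group has 1 array.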
